A study of Rattus norvegicus with 12 samples.

Results

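The 9 genes described here are identity markers of synovial fibroblasts, chosen by gene name as markers in general use for these cells. They are Prg4 and Cd55 for the lining layer, Thy1 and Cd34 for the sublining, and Fap, Pdpn, Vim, Htra1 and Gas6 for fibroblasts of the synovium more broadly. The deposited table holds 22442 gene records, and 14 of them carry 1 of the 9 names, because 4 genes have more than 1 record. For each gene the record of highest mean level was used. A mean of at least 1 FPKM (fragments per kilobase of exon, scaled to the mapped fragments of the library) over the 12 libraries was required for a test. This filter kept 8 of the 9 genes, and Cd34 did not reach it.

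The synovium lines the joint with a thin sheet of macrophages and fibroblasts over a looser sublining that holds vessels, fat and further fibroblasts. Lining fibroblasts secrete lubricin, the product of Prg4, and carry the complement regulator CD55, while sublining fibroblasts carry THY1 (CD90) and, in part, CD34. Fibroblast-like synoviocytes (FLS) grown out of arthritic joints are the usual culture model of these cells, and culture does not keep the tissue's layers apart.

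Poly(A) RNA was sequenced from FLS of adjuvant arthritis (AA) rats, male Sprague Dawley animals injected with complete Freund's adjuvant in a hind paw, whose synovial outgrowth was used at the third generation. The untreated FCA cells were kept in plain DMEM. Taurochenodeoxycholic acid (TCDCA), a taurine-conjugated bile acid, was given for 12 h at 10 µM (1e-05 M) to AT10, at 1 µM (1e-06 M) to AT1 and at 0.1 µM (1e-07 M) to AT01. Each group had 3 libraries, and all 4 groups came from arthritic rats, so no healthy-rat cells stand beside them. Neither the labels nor the methods say whether the libraries of a group came from separate cultures or animals, and the replicate numbers are said only to stand for repeated sets of the study. The p-values therefore measure the spread between these libraries, which may be technical. Summed FPKM ran from 284210 to 309696 across the libraries, and the number of reads behind a value is unknown.

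The broad fibroblast genes were among the most abundant records. Vim ranked 3 among all records by mean FPKM, Htra1 ranked 84, Thy1 340, Cd55 354, Gas6 366, Pdpn 794, Prg4 1569 and Fap 3379, while Cd34 ranked 18690. The median mean level of all records was 1.17 FPKM. FPKM is a level per length of transcript, so genes can be set side by side on it. Both layer labels were thus present in the same culture, with Cd55 and Thy1 at like levels and the other sublining marker, Cd34, at or near 0. In bulk RNA, fewer cells of a type and less RNA per cell cannot be told apart.

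None of the 8 tested markers passed the threshold, a p under 0.05 after Benjamini-Hochberg adjustment across the 11611 tested records, in any dose against FCA. The same count of 0 was found for the 9 TCDCA libraries together against FCA and for the test of any difference among the 4 groups. The test was limma on log2(FPKM + 1), and over all records it called 0.172% in AT10 against FCA, 0.0947% in AT1, 0.0947% in AT01, 0.0258% for all TCDCA libraries and 0.0431% among the 4 groups. At an unadjusted p under 0.05, the markers counted 4 of 8 in AT10, where 11.9% of all records passed. Cd55 and Fap were the higher ones (background 7.54%) and Thy1 and Gas6 the lower ones (4.34%). In AT1 the count was 2 of 8 (11%), Fap higher (5.56%) and Thy1 lower (5.44%), and in AT01 it was 0 of 8 (6.6%, with 2.57% higher and 4.03% lower). For all TCDCA libraries it was 2 of 8 (12%), again Fap higher (5.86%) and Thy1 lower (6.15%), and among the 4 groups it was 3 of 8 (8.57%), Thy1, Fap and Gas6. No marker met the study's own criterion, which asks for both an unadjusted p below 0.05 and a log2 fold change beyond 1 in either direction and which 0.706% of records met in AT10, 0.62% in AT1, 0.758% in AT01 and 0.491% for all TCDCA libraries. A Ballgown-style F test also called 0 of the 8 markers at an adjusted p under 0.05, and at an unadjusted p under 0.05 it counted 3 in AT10, 2 in AT1, 1 in AT01, 2 for all TCDCA libraries and 2 among the 4 groups.

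In AT10, 4 of the 8 markers had all 3 libraries on one side of all 3 FCA libraries, with Cd55 and Fap higher and Thy1 and Gas6 lower. Over all records, 19.9% showed no such overlap in this comparison, 10.7% higher and 9.18% lower. In AT1 these were 2 of the 8 markers, Fap higher (background 9.87%) and Thy1 lower (10%), of 19.9% in all. In AT01 they were the same 2 markers, Fap higher (5.97%) and Thy1 lower (8.06%), of 14% in all. For the 9 TCDCA libraries together, Fap was above and Thy1 below all 3 FCA libraries in 9 of 9, a pattern that 2.86% of the records showed, 0.956% higher and 1.9% lower. The 3 doses share the same FCA libraries, so their differences are not independent of each other.

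**Figure D1:**
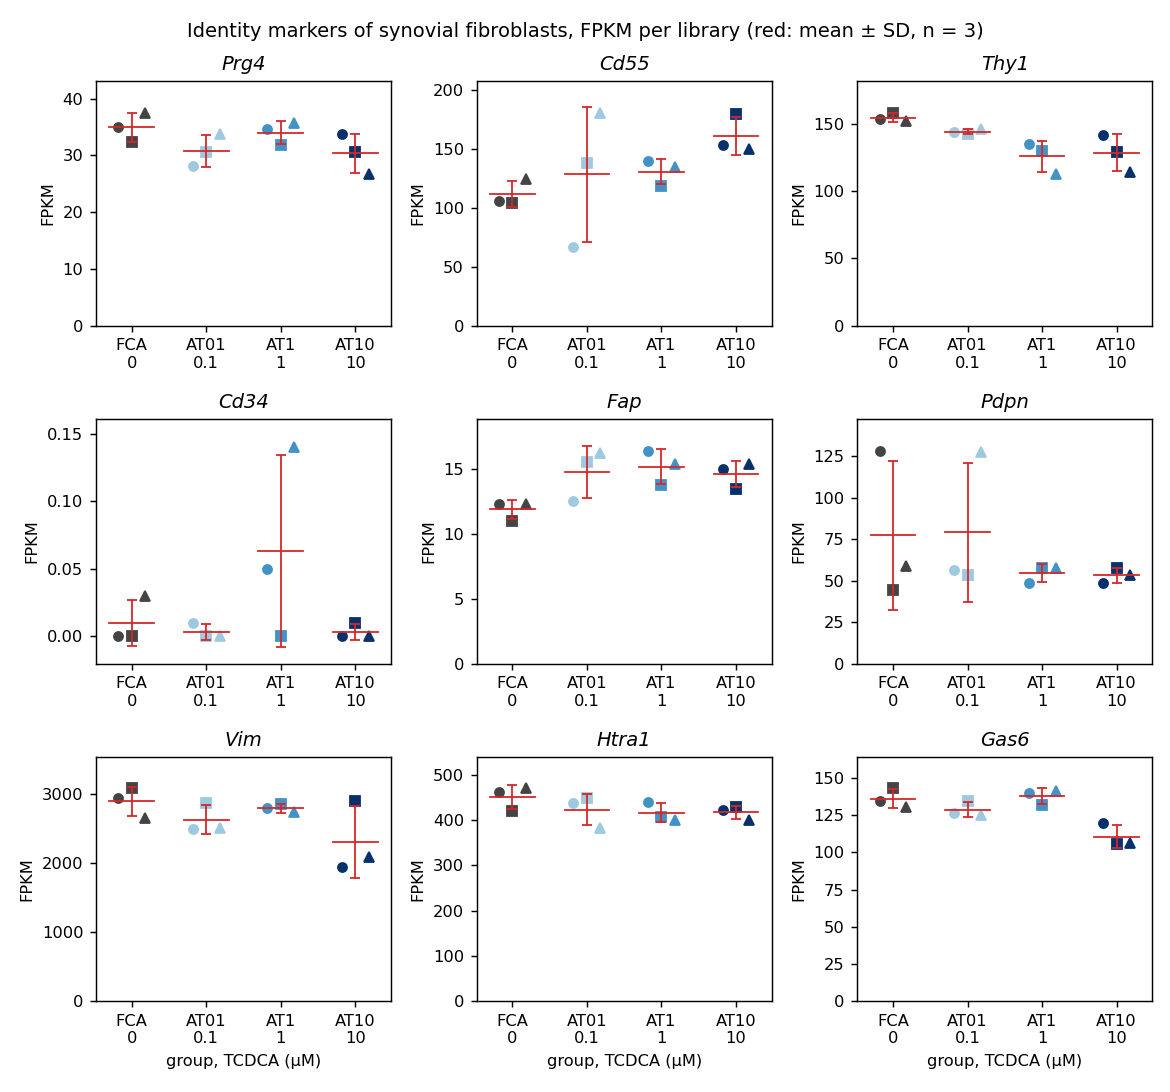
FPKM of the 9 marker genes in each of the 12 libraries, with the group and its TCDCA concentration (µM) on the horizontal axis. Circles, squares and triangles stand for replicates 1, 2 and 3, and red bars for the mean ± SD of 3 libraries. Thy1 lies highest in FCA, Fap lowest in FCA, the 3 AT10 libraries of Gas6 lie below the other 9, and Pdpn is near 128 in 1 FCA and 1 AT01 library and below 60 in the other 10.

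Prg4 encodes lubricin, the mucin-like glycoprotein that lubricates cartilage and synovium. Its level was 35.1, 32.3 and 37.5 FPKM in FCA, 33.8, 30.6 and 26.8 in AT10, 34.6, 31.8 and 35.7 in AT1, and 28.2, 30.6 and 33.7 in AT01. The groups overlapped at every dose, and the highest single value was an FCA library. The group means were 34.95 ± 2.59 FPKM (SD, n = 3) in FCA, 30.4 ± 3.49 in AT10, 34.0 ± 2.00 in AT1 and 30.8 ± 2.78 in AT01, in this order FCA, AT1, AT01 and AT10, and no neighbours in the order were apart beyond their spread. The log2 fold change from limma was -0.20 in AT10 (95% interval -0.46 to 0.06, adjusted p = 0.498), -0.04 in AT1 (-0.23 to 0.16, adjusted p = 0.867) and -0.18 in AT01 (-0.42 to 0.06, adjusted p = 0.763). A second record named Prg4 stayed between 0 and 0.50 FPKM.

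Cd55 encodes decay-accelerating factor, a membrane-anchored protein that disperses the complement convertases, and it is also a ligand of the adhesion receptor CD97. Its main record stood at 106, 104 and 125 FPKM in FCA and at 154, 179 and 149.8 in AT10. It stood at 139.6, 119 and 135 in AT1 and at 67.3, 138 and 181 in AT01. All 3 AT10 libraries were above all 3 FCA libraries. AT1 overlapped FCA, and AT01 held both the lowest and the highest Cd55 value of the 12 libraries.

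The mean Cd55 level was 112 ± 11.1 FPKM (SD, n = 3) in FCA, 161 ± 16.1 in AT10, 131 ± 10.9 in AT1 and 129 ± 57.3 in AT01. AT10 was thus 1.44 times FCA by the ratio of means, with a log2 fold change of 0.52 (SE 0.11, 95% interval 0.26 to 0.78), the largest among the tested markers in size at any dose. Its unadjusted p in limma was 0.00296 and its adjusted p 0.177, and the exact permutation test gave 0.1, the smallest p that 3 libraries against 3 allow. The log2 fold change was 0.23 in AT1 (-0.02 to 0.47, adjusted p = 0.455) and 0.09 in AT01 (-0.80 to 0.99, adjusted p = 0.962). The AT01 value rested on replicate 1, at 67.3 FPKM, and was 0.50 without that library. For the 9 TCDCA libraries together, 7 were above all FCA libraries and 1 below, with a log2 fold change of 0.28 (exact permutation p = 0.305).

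Between doses, AT10 and AT1 did not overlap in Cd55 and differed by 0.29 on the log2 scale (95% interval 0.04 to 0.54), at an unadjusted p of 0.0283 and an adjusted p of 0.748 in limma. The background of that comparison was 0.258% of records called. In the order of mean levels AT10, AT1, AT01 and FCA, only the first step was free of overlap.

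A second record also carries the name Cd55, at a mean of 35.6 FPKM against 133 FPKM for the main one. It read 27.1, 32.4 and 36.0 FPKM in FCA, 38.3, 39.9 and 41.0 in AT10, 33.45, 33.95 and 33.77 in AT1, and 36.7, 39.6 and 35.15 in AT01. AT10 was again above FCA in 3 of 3 libraries, with a log2 fold change of 0.32 (SE 0.11, unadjusted p = 0.0291, adjusted p = 0.370 in limma). The AT01 libraries, spread from 67.3 to 181 FPKM in the main record, lay between 35.15 and 39.6 FPKM here. For all 9 TCDCA libraries against FCA, the exact permutation test of the second record gave p = 0.0455, at an adjusted p of 0.380 in limma. Summed over both records, Cd55 was 144 ± 14.8 FPKM in FCA, 201 ± 16.2 in AT10, 165 ± 10.7 in AT1 and 166 ± 56.9 in AT01 (SD, n = 3 each).

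**Figure D2:**
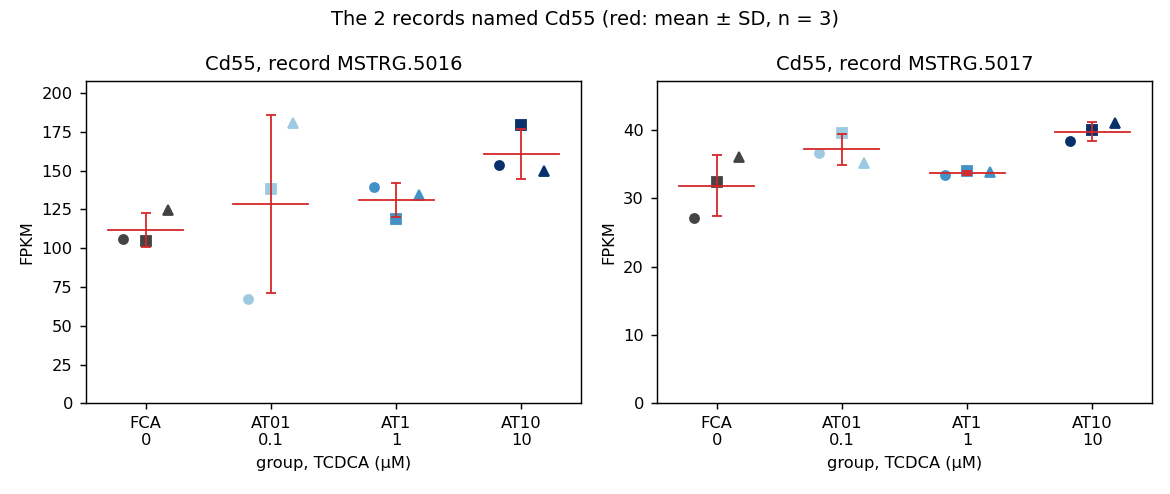
FPKM of the 2 records named Cd55 by group and TCDCA concentration (µM), with circles, squares and triangles for replicates 1, 2 and 3 and red bars for the mean ± SD of 3 libraries. AT10 lies above FCA in both records, while AT01 runs from 67.3 to 181 FPKM in the main record and from 35.15 to 39.6 FPKM in the second.

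Thy1 encodes a small glycoprotein held in the membrane by a lipid anchor, and it marks sublining and perivascular fibroblasts. Its level was 154, 158 and 152 FPKM in FCA, 142, 129 and 114 in AT10, 135, 129.5 and 112 in AT1, and 144, 142 and 146 in AT01. In FPKM, all 9 TCDCA libraries lay below all 3 FCA libraries, but rescaled to TPM AT01 replicate 3 lay above FCA replicate 3. The mean was 154 ± 3.17 FPKM (SD, n = 3) in FCA, 128 ± 13.7 in AT10, 126 ± 11.7 in AT1 and 144 ± 2.02 in AT01. Relative to FCA these were differences of -16.8%, -18.6% and -6.70%.

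On the log2 scale, Thy1 differed from FCA by -0.27 in AT10 (95% interval -0.49 to -0.05, unadjusted p = 0.0237, adjusted p = 0.348 in limma) and by -0.30 in AT1 (-0.50 to -0.10, unadjusted p = 0.0107, adjusted p = 0.420). In AT01 the difference was -0.10 (-0.24 to 0.04, adjusted p = 0.779). For the 9 TCDCA libraries together it was -0.22 (adjusted p = 0.356), with an exact permutation p of 0.0227. In FPKM, AT01 lay between FCA and the other doses without overlap on either side, and AT10 and AT1 overlapped. Rescaled to TPM, AT01 overlapped both FCA and AT10, so this order depends on the scale.

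The summed FPKM of the mural and smooth muscle list, markers of the contractile cells around vessels, was also lower with TCDCA, mostly through 1 gene, Acta2. The sum ran from 320.6 to 422 in FCA, from 172 to 320.1 in AT10, from 264 to 301 in AT1 and from 238 to 297 in AT01. In FPKM, all 9 TCDCA libraries thus lay below the FCA libraries, by a narrow margin between AT10 replicate 1 (320.12) and FCA replicate 3 (320.64). Rescaled to TPM, AT10 replicate 1 lay above FCA replicate 3 in this sum and in Acta2 alone. Acta2 encodes smooth muscle actin and is also a gene of activated fibroblasts. Its level was 370.1, 317 and 263 FPKM in FCA, 255.5, 247 and 125 in AT10, 246, 224 and 216 in AT1, and 184.5, 247 and 239 in AT01 (log2 fold change over the 9 TCDCA libraries -0.54, unadjusted p = 0.0171, adjusted p = 0.347). Of the list of 9 genes, 7 had a record and 6 were tested, and over the 9 TCDCA libraries 3 of the 6 had a higher mean than in FCA, with a median log2 fold change of 0.001. The values were 0.02 for Cnn1, 0.03 for Mcam, 0.05 for Des, -0.02 for Myh11 and -0.25 for Cspg4, none with an unadjusted p under 0.05, and Cspg4 was at -0.55 in AT1 (unadjusted p = 0.0173, adjusted p = 0.421).

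Acan, the aggrecan gene of the chondrocyte list, also lay below FCA in all 9 TCDCA libraries in FPKM, as Acta2 did on that scale. Of all records tested, 1.9% showed this pattern. Acan read 5.79, 4.89 and 4.91 FPKM in FCA and 2.74 to 4.58 FPKM in the TCDCA libraries (log2 fold change -0.31, unadjusted p = 0.0170, adjusted p = 0.347). The part of these other cell types or genes in the Thy1 values was not tested.

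Cd34 encodes a sialomucin of endothelium, progenitor cells and sublining fibroblasts. It was listed at 0, 0 and 0.03 FPKM in FCA, 0, 0.01 and 0 in AT10, 0.05, 0 and 0.14 in AT1, and 0.01, 0 and 0 in AT01. All 12 values were too low for a comparison, and no fold is given. Of the 2 sublining members, Thy1 was thus the one that could be measured in these cultures.

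Set against each other, the lining and sublining markers gave a level for each library, the mean log2(FPKM + 1) of Prg4 and Cd55 minus that of Thy1 and Cd34. It was 2.32, 2.23 and 2.47 in FCA, 2.62, 2.72 and 2.59 in AT10, 2.57, 2.46 and 2.63 in AT1, and 1.89, 2.47 and 2.71 in AT01. The 3 AT10 libraries were above the 3 FCA libraries, AT1 touched the FCA range with 1 library, and AT01 spanned from below to above it. The group means differed from that of FCA by 0.30 (AT10), 0.21 (AT1) and 0.01 (AT01). Because Cd34 was near 0, these values depend on the scale. With Thy1 alone as the sublining term, chosen after seeing the data, they were 0.43 in AT10 and 0.40 in AT1, and with a pseudocount of 0.1 in place of 1 the AT1 value was 0.00226. The AT01 value was 0.25 without AT01 replicate 1 and -0.16 without AT01 replicate 3. A score over chosen genes gets no test here.

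The 2 lining markers differed in their order of group means. Cd55 per Prg4, as a ratio of FPKM, was 3.20 ± 0.15 (SD, n = 3) in FCA, 5.34 ± 0.69 in AT10, 3.84 ± 0.16 in AT1 and 4.09 ± 1.53 in AT01. Cd55 per Thy1 was 0.692, 0.662 and 0.821 in FCA and 1.08, 1.39 and 1.31 in AT10. It was 1.04, 0.916 and 1.197 in AT1 and 0.469, 0.970 and 1.24 in AT01. Prg4 per Thy1 was 0.23 ± 0.02 in FCA, 0.24 ± 0.002 in AT10, 0.27 ± 0.04 in AT1 and 0.21 ± 0.02 in AT01. Of the terms in the AT10 difference, Cd55 was higher and Thy1 lower than in FCA, and Prg4 was lower in mean level as well.

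**Figure D3:**
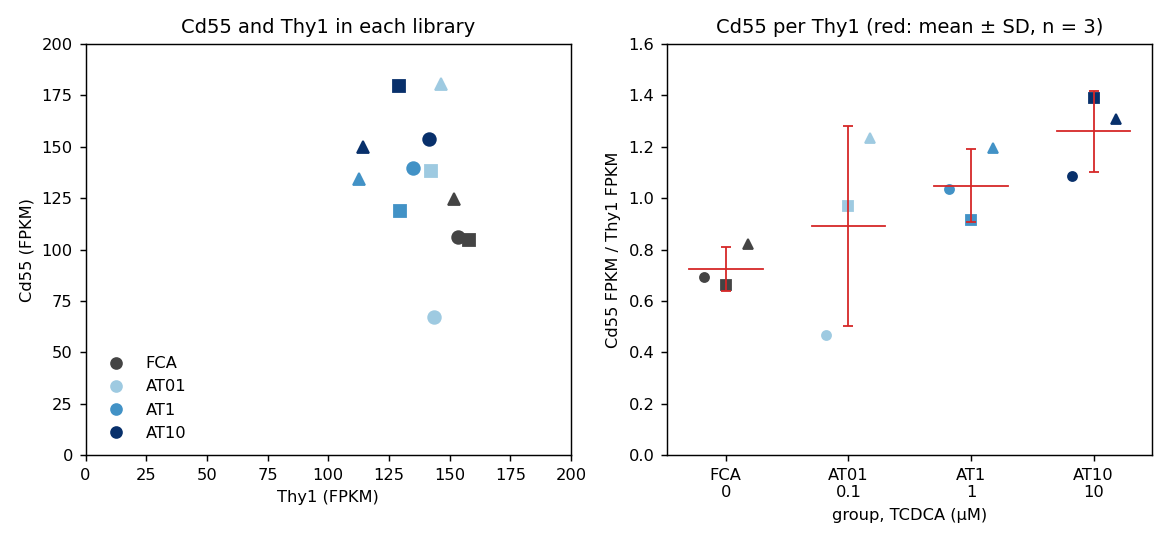
Left, Cd55 FPKM (vertical) against Thy1 FPKM (horizontal) in the 12 libraries, with a color for each group and circles, squares and triangles for replicates 1, 2 and 3. Right, Cd55 FPKM per Thy1 FPKM by group and TCDCA concentration (µM), with the mean ± SD of 3 libraries in red. All 3 AT10 libraries lie above the 3 FCA libraries in the ratio, and AT01 runs from 0.469 to 1.24.

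Across the 12 libraries, the correlation of log2(FPKM + 1) was computed for the 6 combinations of the 4 layer markers. Cd55 with Thy1 gave Pearson's r = -0.33 (permutation p = 0.298, adjusted over the 6 combinations 0.477) and Spearman's rho = -0.43 (permutation p = 0.161, adjusted 0.577). Without AT01 replicates 1 and 3, the 2 libraries farthest from the median of Cd55, r was -0.54 (permutation p = 0.108), and with each group centred on its mean it was 0.04. Prg4 with Cd55 gave r = 0.17 (permutation p = 0.593, adjusted 0.711) and rho = -0.08 (permutation p = 0.815, adjusted 0.866), and r was -0.25 without the 2 farthest libraries. With each group centred on its mean, r of Prg4 with Cd55 was 0.61. Prg4 with Thy1 gave r = 0.32 (permutation p = 0.318, adjusted 0.477) and rho = 0.26 (permutation p = 0.417, adjusted 0.626), with r at 0.07 without the 2 farthest libraries and 0.35 with groups centred. None of the 6 reached an adjusted p under 0.05, and the lowest adjusted p was 0.412, for Thy1 with Cd34, whose values were near 0.

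Likeness of log2(FPKM + 1) over the 12 libraries was ranked among the tested records that carry a gene name and are not members. Those most like Prg4 were Fam149b1 (r = 0.90) and Timp3 (r = 0.88), at 5.10 to 6.91 and 1.07 to 1.82 FPKM. Those most like Cd55 were the F-box gene Fbxo11 (r = 0.97, 4.28 to 9.42 FPKM) and the glycerol kinase gene Gk (r = 0.96, 0.78 to 1.72 FPKM). Those most like Thy1 were LOC689574 (r = 0.92, 106 to 152 FPKM) and Nf1x, as the table spells it (r = 0.92, 21.97 to 35.5 FPKM). These coefficients are the highest among those named records and carry no test. Records without a gene name were left out of the ranking. The points share their libraries.

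Fap encodes fibroblast activation protein, a serine protease of the cell surface that marks activated fibroblasts. It stood at 12.27, 10.99 and 12.30 FPKM in FCA, 15.0, 13.4 and 15.3 in AT10, 16.4, 13.7 and 15.35 in AT1, and 12.49, 15.5 and 16.2 in AT01. In FPKM, all 9 TCDCA libraries were above the FCA libraries, with AT01 replicate 1 the closest, at 12.49 against 12.30 FPKM. Rescaled to TPM, that library lay below FCA replicates 1 and 3. The mean was 11.9 ± 0.75 FPKM (SD, n = 3) in FCA, 14.6 ± 1.01 in AT10, 15.1 ± 1.35 in AT1 and 14.7 ± 1.97 in AT01, or 23.1%, 27.7% and 24.3% above FCA. The 3 doses overlapped each other.

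The log2 fold change of Fap was 0.28 in AT10 (95% interval 0.08 to 0.48, unadjusted p = 0.0152, adjusted p = 0.297 in limma), 0.33 in AT1 (0.11 to 0.55, unadjusted p = 0.0112, adjusted p = 0.420) and 0.29 in AT01 (unadjusted p = 0.0510, adjusted p = 0.720). For the 9 TCDCA libraries together it was 0.30 (0.12 to 0.47, unadjusted p = 0.00307, adjusted p = 0.295). The exact permutation p there was 0.00455, the smallest that 9 libraries against 3 allow.

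Pdpn encodes podoplanin, a mucin-type membrane protein of lymphatic vessels and of inflamed synovium. Its level was 128, 44.5 and 59.0 FPKM in FCA, 48.5, 57.8 and 53.5 in AT10, 48.3, 57.6 and 57.65 in AT1, and 56.5, 53.7 and 128 in AT01. FCA replicate 1 and AT01 replicate 3 stood far above the other 10 libraries, which lay between 44.5 and 59.0. The fold changes of Pdpn followed those libraries, at -0.38 in AT10 (SE 0.39, adjusted p = 0.696), -0.35 in AT1 (SE 0.39, adjusted p = 0.715) and 0.07 in AT01 (SE 0.51, adjusted p = 0.984). Without FCA replicate 1 they were 0.05 in AT10, 0.08 in AT1 and 0.50 in AT01. Other records of the name read between 0 and 1.42 FPKM, and 1 of them was at 0 in AT01 replicate 3 and in FCA replicate 2. The files do not show how reads were assigned to these records, so whether the 2 levels belong to the gene or to its record was not tested.

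Vim encodes vimentin, the intermediate filament of mesenchymal cells, and was the most abundant of the 9 genes. It read 2944, 3084 and 2663 FPKM in FCA, 1942, 2901 and 2086 in AT10, 2795, 2859 and 2736 in AT1, and 2501, 2874 and 2512 in AT01. Of the AT10 libraries, replicates 1 and 3 were below all other 10 libraries and replicate 2 lay inside the FCA range. The mean was 2897 ± 214 FPKM (SD, n = 3) in FCA and 2309.5 ± 517 in AT10, a difference of -20.3% (log2 fold change -0.35, 95% interval -0.75 to 0.06, adjusted p = 0.462 in limma). In AT1 and AT01 the log2 fold change was -0.05 (adjusted p = 0.789) and -0.14 (adjusted p = 0.805), and all neighbours in the order of means overlapped.

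Htra1 encodes a secreted serine protease that cleaves matrix proteins. Its level was 463, 421 and 470.1 FPKM in FCA, 422, 429 and 401 in AT10, 441, 408 and 401 in AT1, and 437, 448 and 384 in AT01. The groups overlapped at every dose. The log2 fold changes were -0.11 in AT10 (95% interval -0.27 to 0.05), -0.11 in AT1 (-0.29 to 0.06) and -0.09 in AT01 (-0.32 to 0.13), with adjusted p of 0.533, 0.538 and 0.829.

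Gas6 encodes a secreted ligand of the receptor kinases TYRO3, AXL and MERTK. Its level was 135, 143 and 131 FPKM in FCA, 119.6, 106 and 107 in AT10, 140.2, 132 and 141 in AT1, and 126, 134 and 125 in AT01. In FPKM, the 3 AT10 libraries were below the other 9, the nearest being AT01 replicate 3 at 125 FPKM. Rescaled to TPM, AT10 replicate 1 lay above AT01 replicate 1, and the AT10 libraries stayed below those of FCA. FCA, AT1 and AT01 overlapped each other. The mean was 136 ± 6.20 FPKM (SD, n = 3) in FCA, 111 ± 7.80 in AT10, 138 ± 5.37 in AT1 and 128 ± 5.02 in AT01.

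In AT10 against FCA, Gas6 differed by -18.8% in mean level and by -0.30 on the log2 scale (95% interval -0.48 to -0.12, unadjusted p = 0.00703, adjusted p = 0.227 in limma). The exact permutation p was 0.1, the smallest possible. For Gas6 the log2 fold change was 0.02 in AT1 (-0.13 to 0.17, adjusted p = 0.919) and -0.08 in AT01 (-0.25 to 0.09, adjusted p = 0.823). Between doses, AT10 differed from AT1 by -0.32 (unadjusted p = 0.00508, adjusted p = 0.522) and from AT01 by -0.22 (unadjusted p = 0.0377, adjusted p = 0.867), where 0.258% and 0.0689% of all records were called. AT1 and AT01 overlapped, with 0.129% of all records called. Among the 8 markers Gas6 had the lowest unadjusted p in the test over the 4 groups, 0.00352, at an adjusted p of 0.402.

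RefSeq promoter windows in the GRCr8 assembly, here the first 250 bases of each listed promoter sequence, were available for 8 of the 9 genes, and Thy1 had none. The windows of Htra1, Cd34, Gas6 and Vim ended directly at the RefSeq gene start. Those of Fap, Pdpn, Cd55 and Prg4, all on the minus strand, did not, and where they lie relative to the gene was not checked. The motif counts below include these windows, and the position of the windows behind the shares over all genes was not checked either. Shown are those of Gas6, whose AT10 libraries stood apart in FPKM as deposited, and of Vim, the most abundant member. Both lie on the plus strand, at chr16:82747426-82747675 and chr17:81577011-81577260. Capitals mark the GC box, GGGCGG or its reverse complement CCGCCC, and the TATA box, TATAAA.
Gas6: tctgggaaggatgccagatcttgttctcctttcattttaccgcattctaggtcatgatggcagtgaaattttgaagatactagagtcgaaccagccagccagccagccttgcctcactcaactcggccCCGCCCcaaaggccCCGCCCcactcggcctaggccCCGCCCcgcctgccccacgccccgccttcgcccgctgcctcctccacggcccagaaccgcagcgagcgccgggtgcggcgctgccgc
Vim: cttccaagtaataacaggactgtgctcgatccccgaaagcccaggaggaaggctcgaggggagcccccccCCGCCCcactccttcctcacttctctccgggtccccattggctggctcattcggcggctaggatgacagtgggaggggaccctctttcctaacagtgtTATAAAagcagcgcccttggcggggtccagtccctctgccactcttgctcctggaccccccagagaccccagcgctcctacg
The Gas6 window held 3 GC boxes and no TATA box, and the Vim window held 1 GC box and 1 TATA box. On either strand, the GC box was present in 5 of the 8 marker windows and in 30.5% of 33469 windows of the same length, and the TATA box in 2 of 8 and in 12.9%. TGACG, a half-site of the cAMP response element, was in 4 of 8 and in 18.2% of all windows, and AGAACA, a half-site of the glucocorticoid response element, in 2 of 8 and in 17.5%. A match of such short letters is a description of the window and not a binding site.

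**Figure D4:**
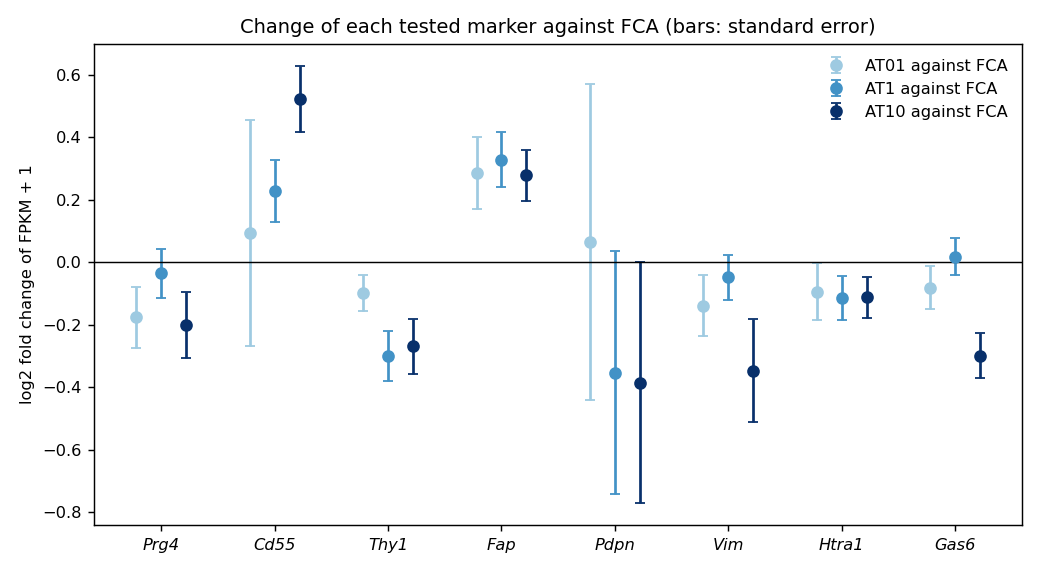
Log2 fold change of FPKM + 1 against FCA for the 8 tested markers (vertical axis), with 1 point for each TCDCA dose and bars for the standard error. Cd55 in AT10 lies highest, at 0.52, Fap lies near 0.3 at all 3 doses, Gas6 is apart in AT10, and the bars of Pdpn and of Cd55 in AT01 are the widest.

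The markers also differed in how far replicates of a group scattered. The within-group SD of log2(FPKM + 1) was 0.07 for Gas6, 0.09 for Htra1, 0.10 for Thy1, 0.12 for Prg4, 0.13 for Fap and 0.17 for Vim, against a median of 0.17 over all records tested. Cd55 at 0.38 and Pdpn at 0.53 were above it, at the points where 83.3% and 90.2% of the records had a smaller SD.

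Gene lists around the 9 members gave the same count, since no gene of any list passed the adjusted threshold in any comparison. Of 13 lining genes, 6 were tested, and the highest in level were the matrix protease Mmp3, Cd55 and the growth factor Hbegf. Mmp3 ran from 412 to 709 FPKM over the 12 libraries, the highest in AT10 replicate 3 (log2 fold change 0.24 in AT10, adjusted p = 0.613). Hbegf ran from 34.6 to 86.1 FPKM (log2 fold change -0.63 in AT10, unadjusted p = 0.0448, adjusted p = 0.409). The whole lining list had a median log2 fold change of 0.05 (AT10), 0.06 (AT1) and -0.14 (AT01), beside -0.01, 0.02 and 0.002 over all records. At an unadjusted p under 0.05 the list counted 1 higher and 1 lower of 6 in AT10, and 0 in AT1 and AT01, where 11.9%, 11% and 6.6% of all records passed.

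Of 15 sublining genes, 7 were tested, and the highest in level were the tetraspanin Cd9, Thy1 and the microfibril gene Mfap5. Cd9 ran from 171 to 329 FPKM and Mfap5 from 20.1 to 33.3 FPKM. In AT10 their log2 fold changes were -0.21 (adjusted p = 0.512) and -0.16 (adjusted p = 0.644). For the whole list the median log2 fold change was -0.24, -0.30 and -0.09 in the AT10, AT1 and AT01 groups, the AT1 median being the value of Thy1 itself. The medians over all records, for the same order of doses, were -0.01, 0.02 and 0.002. At an unadjusted p under 0.05, the 7 genes counted 1 lower in AT10, 1 higher and 1 lower in AT1, and 0 in AT01. The shares over all records were 4.34% lower for AT10, 5.56% higher and 5.44% lower for AT1, and 6.6% in either direction for AT01. Not all of the list was lower at every dose, as 2 genes chosen after their values were seen show. The collagen gene Col14a1 read 8.48, 8.28 and 8.13 FPKM in FCA and 10.45, 10.49 and 10.18 in AT1 (log2 fold change 0.29, unadjusted p = 0.00229, adjusted p = 0.315), with -0.24 in AT10 and 0.20 in AT01. The Wnt regulator gene Sfrp1, at 1.94 to 2.46 FPKM in FCA replicate 2 and AT1 replicates 1 and 2 and at 8.70 to 12.4 FPKM in the other 9 libraries, had a log2 fold change of 0.58 in AT10, -0.43 in AT1 and 0.82 in AT01 (adjusted p = 0.659, 0.814 and 0.795). Its fold changes followed those low libraries, and the doubt given for Pdpn holds for Sfrp1 too. Dpp4, a sublining marker and a relative of Fap, was at or below 0.02 FPKM in every library.

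All 14 broad fibroblast genes with a record were tested, led by the calcium-binding protein gene S100a4 (2734 to 4274 FPKM), Vim and the matrix gene Sparc (1706 to 2209 FPKM). At an unadjusted p under 0.05, 2 were higher and 3 lower in AT10, where 7.54% and 4.34% of all records were. In AT1 2 were higher and 1 lower (5.56% and 5.44% of all records), and in AT01 1 was higher (2.57%). Members included, the median log2 fold change was -0.18 (AT10), -0.03 (AT1) and -0.09 (AT01). Lum, the gene of the small matrix proteoglycan lumican and chosen after its values were seen, was also above FCA at each dose, with 595, 603 and 625.1 FPKM in FCA and 695 to 906 in the 9 TCDCA libraries (log2 fold change 0.30, unadjusted p = 0.00158, adjusted p = 0.257). Of all records tested, 0.956% were likewise above all FCA libraries in all 9 TCDCA libraries.

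Among 23 receptors, binding partners and family members of the markers, 21 had a record and 15 were tested. By level the highest were Msn, a membrane-to-actin linker that binds podoplanin (125 to 308 FPKM), the integrin gene Itgb5 (99.5 to 134 FPKM) and the hyaluronan receptor gene Cd44 (72.3 to 97.2 FPKM). Their log2 fold changes in AT10 were 0.42 (adjusted p = 0.602), -0.12 (adjusted p = 0.516) and 0.09 (adjusted p = 0.766). The value of Msn leaned on replicate 1, as Msn read 308, 142 and 154 FPKM in AT10 and 146, 126 and 151 in FCA. At an unadjusted p under 0.05 the list counted 1 higher of 15 in AT10, 1 higher and 1 lower in AT1, and 0 in AT01, against 11.9%, 11% and 6.6% of all records in either direction.

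The receptors of Gas6 and Cd55 are named for their role. Axl averaged 50.0 FPKM, Tyro3 5.65 and Mertk 0.72, and the other ligand of these receptors, Pros1, averaged 9.20 FPKM. In AT10, where Gas6 was lowest, the log2 fold change was -0.14 for Axl (adjusted p = 0.607) and -0.08 for Tyro3 (adjusted p = 0.624). Adgre5, which encodes CD97, the partner of CD55, averaged 6.67 FPKM, with a log2 fold change of -0.18 in AT10 (adjusted p = 0.503).

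Markers of other cell types were mostly near 0. Of 12 macrophage genes 7 had a record and 2 were tested, Cd14 at 3.60 to 18.8 FPKM and Cd68 at 1.66 to 2.91 FPKM, while Lyz2 averaged 0.23 FPKM, Csf1r 0.16 and Adgre1 0.01. Cd14 stood below 5 FPKM in FCA replicate 3, AT1 replicate 1 and AT01 replicate 1 and above 15 FPKM in the other 9 libraries, and the same doubt holds for it as for Pdpn. Of 9 endothelial genes 7 had a record and 1 was tested, Egfl7 at 16.7 to 22.1 FPKM, and Cdh5 was at or below 0.01 FPKM in every library. The T cell list, of which 5 of 7 genes had a record, summed to between 0.02 and 0.29 FPKM, and 2 of its genes were listed at 0 in all 12 libraries.

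The chondrocyte list summed to between 3.13 and 8.17 FPKM, led by Acan (mean 4.31 FPKM) and Sox9 (1.32 FPKM), with Col2a1 at or below 0.01 FPKM. The adipocyte list summed to between 78.4 and 105 FPKM, through Lpl (41.9 to 64.8 FPKM) and Fabp4 (24.1 to 39.1 FPKM), with Adipoq at 1.06 to 3.16 FPKM. The mural list, described beside Thy1, was led by Acta2, Cnn1 (15.0 to 25.0 FPKM) and Des (7.76 to 21.8 FPKM). Several further markers, among them Ptprc, Pecam1 and Tagln, had no record under these symbols and were not analysed here.

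**Figure D5:**
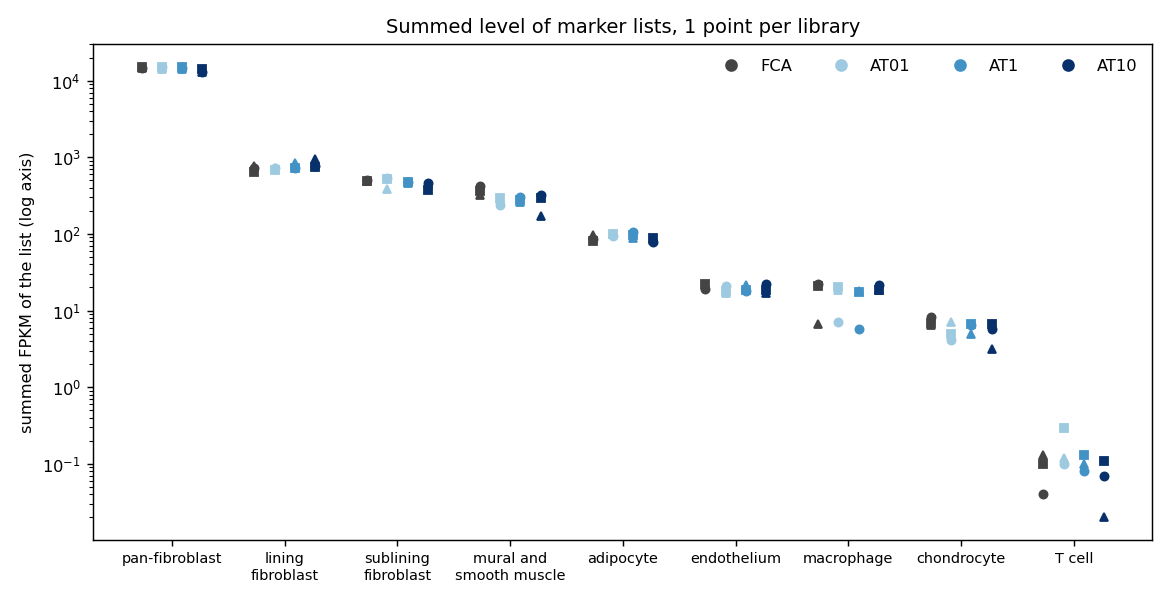
Summed FPKM of 9 marker lists in each library, on a log axis, with a color for each group and circles, squares and triangles for replicates 1, 2 and 3. The fibroblast lists lie highest, the mural sum, mostly Acta2, lies lower in the TCDCA libraries than in FCA, the macrophage list drops in 3 libraries, and the T cell list stays below 0.3 FPKM.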

How the data were processed

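Poly(A) RNA of 12 libraries was sequenced, 3 in each of the FCA, AT10, AT1 and AT01 groups, which were assigned from the labels. The labels name cutadapt, HISAT2 and StringTie, and the methods name HISAT2, StringTie and Ballgown. The labels also name a statistics package other than Ballgown, so the 2 sources differ on this step. The authors deposited FPKM to 2 decimals for 22442 gene records, with no read counts per record, so the counting error of a value is unknown. The paper lists the reads of each library, and they were uneven, with the most in AT01 replicate 3. The genome build is not given in the sources used here, and the labels and the methods name different sequencers.

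The test scale was log2(FPKM + 1). Records averaging 1 FPKM or more (11611) entered limma (version 3.58.1, run in R 4.3.3 with lmFit and a trended eBayes), with a pair of groups per fit, and with all 12 libraries for the 9 TCDCA libraries against FCA and for any difference among the 4 groups. P-values were adjusted by Benjamini-Hochberg over all records. Exact permutation tests were two-sided. Correlations used 100000 permutations. These and the figures were made with Matplotlib 3.10.9, pandas 2.3.3, SciPy 1.17.1 and NumPy 2.4.6 under Python 3.11.15. The fits were tested on simulated data.

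Genes were named by a rule: the 9 members, the 2 records most like each layer marker that passed the filter, and the 3 most abundant genes of each list, with those of an adjusted p under 0.05. Outside the rule, partners and defining cell type markers were named for their role, the tested mural genes to describe that sum, and Lum, Col14a1 and Sfrp1 after their values were seen. The members and lists were chosen with earlier results of these data known. Alternatives were a filter at 10 FPKM or none, a pseudocount of 0.1, median-of-ratios scaling, rescaling to TPM, FPKM summed by name, a Ballgown-style F test, a replicate block, 1 fit over all libraries and each library left out in turn. Promoter windows came from RefSeq GRCr8. The q-PCR and western blot measurements were not analysed here.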

Additional observations from a re-analysis of the deposited data

Results flagged for a closer look

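Over the 9 TCDCA libraries, the distance of the most extreme library from its nearest neighbour was divided by the whole range. The scale was log2(FPKM + 1) for 8 markers and for the lining minus sublining level, against a limit of 0.493. Chance passes this limit in about 1 in 20 groups. The 9 libraries hold 3 doses, so a dose difference also enters the range.

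For Cd55, AT01 replicate 1 was lowest at 67.3 FPKM and the ratio on the log2 scale was 0.573. On FPKM itself the Cd55 ratio lay below the limit, so this flag depends on the scale. The same library stood lowest in the lining minus sublining level, at 1.89 with a ratio of 0.685, a value that contains Cd55. The second Cd55 record read 36.7 FPKM in this library, inside the range of the other TCDCA libraries. For Pdpn, AT01 replicate 3 was highest at 128 FPKM and the ratio was 0.816. FCA replicate 1, outside this set, stood at 128 FPKM as well.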

How the results depend on the processing

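No marker passed an adjusted p under 0.05 in any alternative, and the lowest adjusted p of a marker was 0.140. Separations of groups are given in FPKM as deposited. Rescaled to TPM, Thy1 and Fap overlapped FCA in AT01 and over all TCDCA libraries, and Gas6 in AT10 overlapped AT01. Of 520 alternative fold changes, 505 kept their direction and their side of the threshold, and 15 turned in sign, in 7 of 32 fold changes. The cause was not tested for any of them.

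At an unadjusted p under 0.05, markers in AT01 numbered 1 with no filter, 1 in the Ballgown-style F test, 1 in 1 fit over all libraries and 0 to 2 with a library left out. They numbered 1 to 3 for all TCDCA libraries with a library left out, and among the 4 groups 1 after rescaling to TPM and 1 to 4 with a library left out. Thy1 alone as the sublining level, chosen after seeing the data, gave a lining minus sublining difference of 0.43 in AT10 and 0.40 in AT1, and a pseudocount of 0.1 gave 0.00226 in AT1. The Cd55 fold change in AT01 was -0.12 in the Ballgown-style fit and -0.21 to 0.50 with a library left out, -0.01 without AT01 replicate 2 and -0.21 without AT01 replicate 3. That of Pdpn in AT01 was -0.35 in the Ballgown-style fit and -0.33 to 0.50 with a library left out, with -0.25 without FCA replicate 2, -0.05 without FCA replicate 3 and -0.33 without AT01 replicate 3. Without FCA replicate 1, Pdpn was 0.051 in AT10, 0.0826 in AT1 and 0.21 over all TCDCA libraries, and with each library left out it ran from -0.70 to 0.051, from -0.67 to 0.0826 and from -0.54 to 0.21. Prg4 in AT1 ran from -0.0898 to 0.0144 with a library left out, with 0.0144 without FCA replicate 3 and 0.0106 without AT1 replicate 2. Gas6 in AT1 was -0.00301 after median-of-ratios scaling and -0.011 to 0.0527 with a library left out, with -0.011 without FCA replicate 3 and -0.00209 without AT1 replicate 3. The correlation of Prg4 with Cd55 was -0.25 without the 2 farthest libraries, and that of Cd55 with Thy1 was 0.0424 with groups centred, both chosen after seeing the data.

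Over all records, the 20 calls in AT10 became 7 with a mean of at least 10 FPKM, 2 in 1 fit over all libraries, 1 in the Ballgown-style test and 19 to 35 with a library left out. The 11 in AT1 became 6, 3, 1 and 9 to 33, and the 11 in AT01 became 7, 5, 1 and 13 to 30. The 3 for all TCDCA libraries became 1 with a mean of at least 10 FPKM, 1 with a pseudocount of 0.1, 1 in the Ballgown-style test and 2 to 22 with a library left out, and the 5 among the 4 groups became 3 in the Ballgown-style test, 10 after rescaling to TPM and 8 to 21 with a library left out. The groups share replicate numbers, which a note of the study calls sets of repeats without saying what a set shared. Same-numbered libraries correlated in their deviations at r = -0.105 to 0.0942 over 18 combinations, none over 0.1, and 4 of 12 libraries correlated best with their own number, so the numbers were not taken to pair the libraries. With the replicate number as a block, 0 markers were called in each comparison, and the calls over all records were 1 in AT10, 0 in AT1, 2 in AT01, 1 for all TCDCA libraries and 4 among the 4 groups. Since no read counts per record stand behind the values, depth limits of single records cannot be given.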
